A study of Homo sapiens with 8 samples.

Results

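The 8 RNA-seq libraries of this study differed widely in their skeletal muscle transcripts, and 4 of them, knockdown 2, knockdown 4, control 1 and control 3, are described here as the muscle-rich libraries. They were selected on a measured value, the level of TTN, the gene of the giant sarcomere protein titin, at 10000 CPM of all counts or more, where CPM are counts scaled to a common library total. The other 4 libraries, knockdown 1, knockdown 3, control 2 and control 4, form the muscle-poor side. TTN stood at 29389, 30587, 96282 and 97646 CPM of all counts on the muscle-rich side, and at 27.3, 17.4, 2585 and 21.2 CPM on the muscle-poor side. Where 4 values follow one another, their order is knockdown 2, knockdown 4, control 1 and control 3 on the muscle-rich side, and knockdown 1, knockdown 3, control 2 and control 4 on the muscle-poor side. The libraries nearest to the threshold were knockdown 2 above it, at 29389 CPM, and control 2 below it, at 2585 CPM. Control 2 was thus an intermediate library, between the rest of the muscle-poor side and the muscle-rich side.

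According to the labels, all 8 libraries are HSC3 cells, an established line of human oral squamous carcinoma. All were transfected with 100 pmol of small interfering RNA with Lipofectamine 3000 and collected after 48 h. The 4 knockdown libraries received an siRNA against COL1A1, a collagen chain (labelled si-Col1a1), and the 4 control libraries a non-targeting one (labelled si-NC). In the deposited counts the columns of the knockdown libraries are named KO, where the sample titles say KD. Columns were matched to samples by group and replicate number. Each side of the split holds 2 knockdown and 2 control libraries. Nothing in the labels says that the replicates are separate cultures, so the p-values below measure only the spread between these libraries, which may be technical.

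Because the libraries were sorted by a measured transcript, every difference between the sides is a description without a test, for TTN and for all other genes. A gene is called higher or lower in every muscle-rich library when the 2 sides do not overlap and the mean log2 difference is at least 2, that is 4-fold. Levels are CPM scaled by the trimmed mean of M-values (TMM), and differences are muscle-rich minus muscle-poor means of log2(CPM + 0.5), with the SD over the 4 libraries of each side.

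Skeletal muscle fibres are large multinucleate cells packed with sarcomeres, in which myosin filaments pull on actin filaments and titin spans from the Z-disc to the M-band. Contraction starts when the membrane depolarises, the voltage sensor of the T-tubule opens the ryanodine receptor, and calcium leaves the sarcoplasmic reticulum. Fibres buffer ATP with creatine phosphate, store oxygen on myoglobin, burn glycogen and fat, and hold satellite cells as their stem cells.

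The transcripts went against the labels. Genes restricted to muscle fibres were abundant in the 4 muscle-rich libraries, although the labels name a squamous carcinoma line. KRT5, a keratin of basal keratinocytes, stood at 245, 5606, 126 and 4918 CPM on the muscle-rich side and at 13188 to 23381 CPM on the muscle-poor side. In knockdown 2 and control 1, genes of salivary gland secretions took 13.4% and 20.1% of all counts, against 0.0034% to 0.0146% in the other 6 libraries. Total counts ran from 30684584 to 61795990 per library, and 21192 of 63241 genes passed the filter on low counts. The 95% Wilson intervals of the list shares given here reach at most 0.0131 percentage points to either side, and a count of 0 allows at most 0.0442 to 0.110 CPM depending on the library. Both cover counting error only. In bulk RNA, fewer cells of a type and less RNA per cell cannot be told apart.

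Sequences of 2 kinds help to read the gene lists below. The first are the muscle microRNAs whose host transcripts were measured here. MicroRNAs are short RNAs that repress messages through their seed, bases 2 to 8, given in capitals. RefSeq (GRCh38.p14) places miR-1 and miR-133a inside both MIR1-1HG (chromosome 20, plus strand) and MIR133A1HG (chromosome 18, minus strand).
hsa-miR-1-3p, chr20:62554351-62554372 and chr18:21829015-21829036: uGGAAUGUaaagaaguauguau
hsa-miR-133a-3p, chr18:21825712-21825733 and chr20:62564970-62564991: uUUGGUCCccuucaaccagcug
Their seeds differ. The mature microRNAs themselves were not measured.

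The second kind are promoters, taken as the 250 bases before the start site in RefSeq (GRCh38.p14). They were searched on both strands for the MEF2-type motif, which is CTA, then any 4 bases, then TAG, and for CAGCTG, an E-box of the kind that myogenic helix-loop-helix factors bind. The promoters printed come from 99 genes outside the sarcomere that the naming rule picked for being higher in every muscle-rich library. Of these 72 had a promoter entry and 6 held the MEF2-type motif, so that the 6 are higher there was fixed by the choice. They are described below by role: HSPB7 and KLHL41 with protein upkeep, SMPX and TRIM72 with the sarcolemma, AMPD1 and PPP1R3A with fuel. They are printed with both kinds of letters in capitals.
HSPB7, chr1:16018044-16018293, minus strand: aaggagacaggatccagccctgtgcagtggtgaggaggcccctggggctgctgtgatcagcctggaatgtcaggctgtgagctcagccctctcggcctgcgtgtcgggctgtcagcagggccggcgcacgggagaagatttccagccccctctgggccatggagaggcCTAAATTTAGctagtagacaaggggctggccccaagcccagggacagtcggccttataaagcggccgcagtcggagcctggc
AMPD1, chr1:114695547-114695796, minus strand: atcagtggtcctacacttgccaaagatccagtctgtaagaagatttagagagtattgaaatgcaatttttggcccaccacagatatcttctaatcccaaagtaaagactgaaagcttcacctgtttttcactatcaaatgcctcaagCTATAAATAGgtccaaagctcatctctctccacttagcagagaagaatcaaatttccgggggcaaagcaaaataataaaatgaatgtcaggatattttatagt
KLHL41, chr2:169509452-169509701, plus strand: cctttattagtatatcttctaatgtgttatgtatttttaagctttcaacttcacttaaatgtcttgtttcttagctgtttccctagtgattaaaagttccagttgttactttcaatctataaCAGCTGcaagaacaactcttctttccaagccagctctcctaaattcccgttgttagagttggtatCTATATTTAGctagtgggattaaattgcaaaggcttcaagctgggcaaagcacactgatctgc
PPP1R3A, chr7:113919010-113919259, minus strand: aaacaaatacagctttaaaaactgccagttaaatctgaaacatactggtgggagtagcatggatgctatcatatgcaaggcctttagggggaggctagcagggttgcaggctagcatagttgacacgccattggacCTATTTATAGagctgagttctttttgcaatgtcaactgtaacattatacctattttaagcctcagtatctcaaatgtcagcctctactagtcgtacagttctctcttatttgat
TRIM72, chr16:31213869-31214118, plus strand: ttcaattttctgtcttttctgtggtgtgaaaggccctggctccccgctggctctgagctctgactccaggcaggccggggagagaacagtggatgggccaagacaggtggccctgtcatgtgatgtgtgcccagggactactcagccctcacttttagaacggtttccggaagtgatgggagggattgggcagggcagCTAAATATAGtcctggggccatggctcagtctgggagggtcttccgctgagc
SMPX, chrX:21758117-21758366, minus strand: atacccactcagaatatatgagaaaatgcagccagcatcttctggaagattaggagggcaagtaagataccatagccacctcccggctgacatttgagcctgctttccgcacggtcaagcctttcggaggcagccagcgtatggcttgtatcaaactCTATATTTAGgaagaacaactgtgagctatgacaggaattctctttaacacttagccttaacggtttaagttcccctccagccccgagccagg
The MEF2-type motif lies 52 to 114 bases before the start site in the 6, and CAGCTG occurs in 1 of them, KLHL41. The MEF2-type motif occurred in 4.90% of 694 promoters of genes higher in every muscle-rich library, in 0.917% of 218 promoters of genes lower there, in 2.05% of 13397 tested genes and in 2.42% of all 27305 promoters. For CAGCTG the same shares were 16.4%, 11.5%, 13.5% and 13.8%. Of 45 sarcomere promoters, 4 (8.89%) held the MEF2-type motif and 15 (33.3%) CAGCTG. A match is a run of letters and not a measured binding site.

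Of the 21192 tested genes, 957 were higher in every muscle-rich library by at least 4-fold, a background of 4.52%, and 346 were lower, a background of 1.63%. The rule used this contrast, so the counts describe the split and test nothing. Without knockdown 2 and control 1, the libraries with salivary gland transcripts, the counts were 952 and 369, and without knockdown 4 the lower count was 709. Without a minimum fold the 2 sides did not overlap for 2691 genes on the higher side (12.7%) and 2181 on the lower (10.3%). The median difference over all tested genes was 0.02. It was 0.15 with library totals in place of TMM and 0.40 with totals that leave out the sarcomere and salivary gland lists, and these scalings moved the counts to 1019 against 286 and to 1302 against 230. Only 47 of the 957 genes belong to the sarcomere list, so 910 lie outside it. Because the lists below were drawn up with earlier results of these data known, their counts carry no evidence of their own. Each list count is to be read beside the shares over all tested genes. These were 12.7% higher without overlap and 4.52% higher by at least 4-fold.

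Sarcomere genes had the highest median difference of the 30 lists, except without knockdown 4, when the salivary gland list had 6.20 and the sarcomere list 6.07. All 60 tested members of 61 had a positive difference, 47 of them were higher in every muscle-rich library, and the median was 5.97. Summed, the list took 4.21%, 5.28%, 16.8% and 16.7% of counts on the muscle-rich side and 0.0408%, 0.0277%, 0.579% and 0.0498% on the muscle-poor side. Both controls of the muscle-rich side lay above both knockdowns, and control 2 above the rest of the muscle-poor side.

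**Figure D1:**
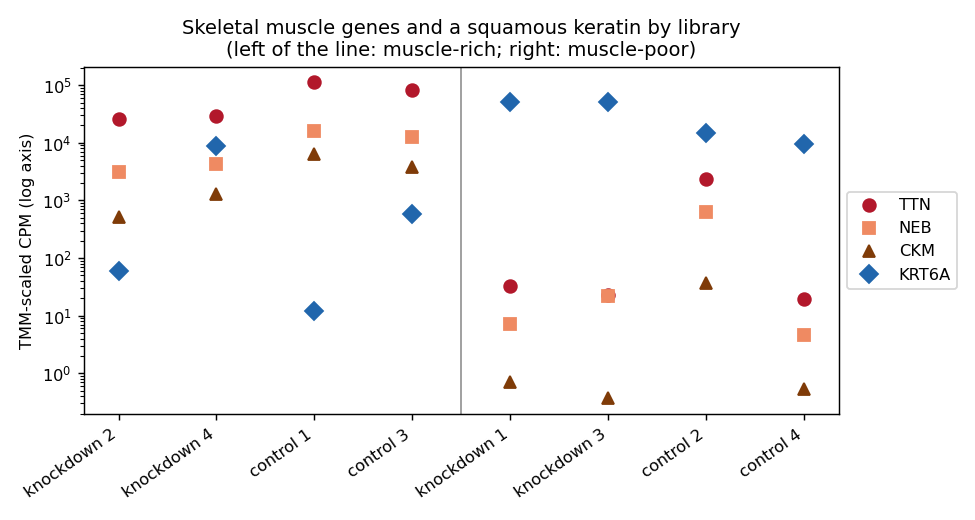
TMM-scaled CPM on a log axis for TTN, NEB, CKM and the keratin KRT6A in each of the 8 libraries, 1 point per library, with muscle-rich and muscle-poor libraries set apart. TTN lies between 26299 and 111653 CPM in the muscle-rich libraries and between 19.7 and 2354 CPM in the muscle-poor ones, with control 2 as the highest muscle-poor library.

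NEB encodes nebulin, which runs along the thin filament. It stood at 3164, 4350, 15725 and 12480 CPM in the muscle-rich libraries and at 7.11, 22.4, 627 and 4.65 CPM in the others, a difference of 8.04 (SD 1.13 and 3.15). CKM, the muscle creatine kinase, stood at 526, 1303, 6405 and 3810 CPM against 0.707, 0.366, 37.2 and 0.536 CPM, a difference of 9.64 (SD 1.61 and 2.61). On the TMM scale both genes had the same order as TTN on the muscle-rich side, with control 1 highest, and control 2 led the muscle-poor side. MYH7 is the myosin heavy chain of slow fibres, and it stood at 423, 1495, 9993 and 13869 CPM against 0.668, 0.476, 25.6 and 0.304 CPM, a difference of 10.43 (SD 2.37 and 2.38). MYH2 is the heavy chain of fast 2A fibres, and it stood at 1510, 3723, 9881 and 2468 CPM against 0.629, 0.769, 156 and 0.340 CPM, a difference of 9.85 (SD 1.15 and 3.61). So slow myosin was highest in control 3, where fast myosin was in the range of the knockdowns, and both were high in control 1. ACTA1, skeletal actin, differed by 9.77 (SD 1.37 and 2.82), and MYBPC1, slow myosin-binding protein C, by 9.53 (SD 1.34 and 3.20). The 13 tested members whose sides overlapped include the embryonic and neonatal myosins MYH3 and MYH8, cardiac actin ACTC1 and the tropomyosins TPM1 and TPM3.

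**Figure D2:**
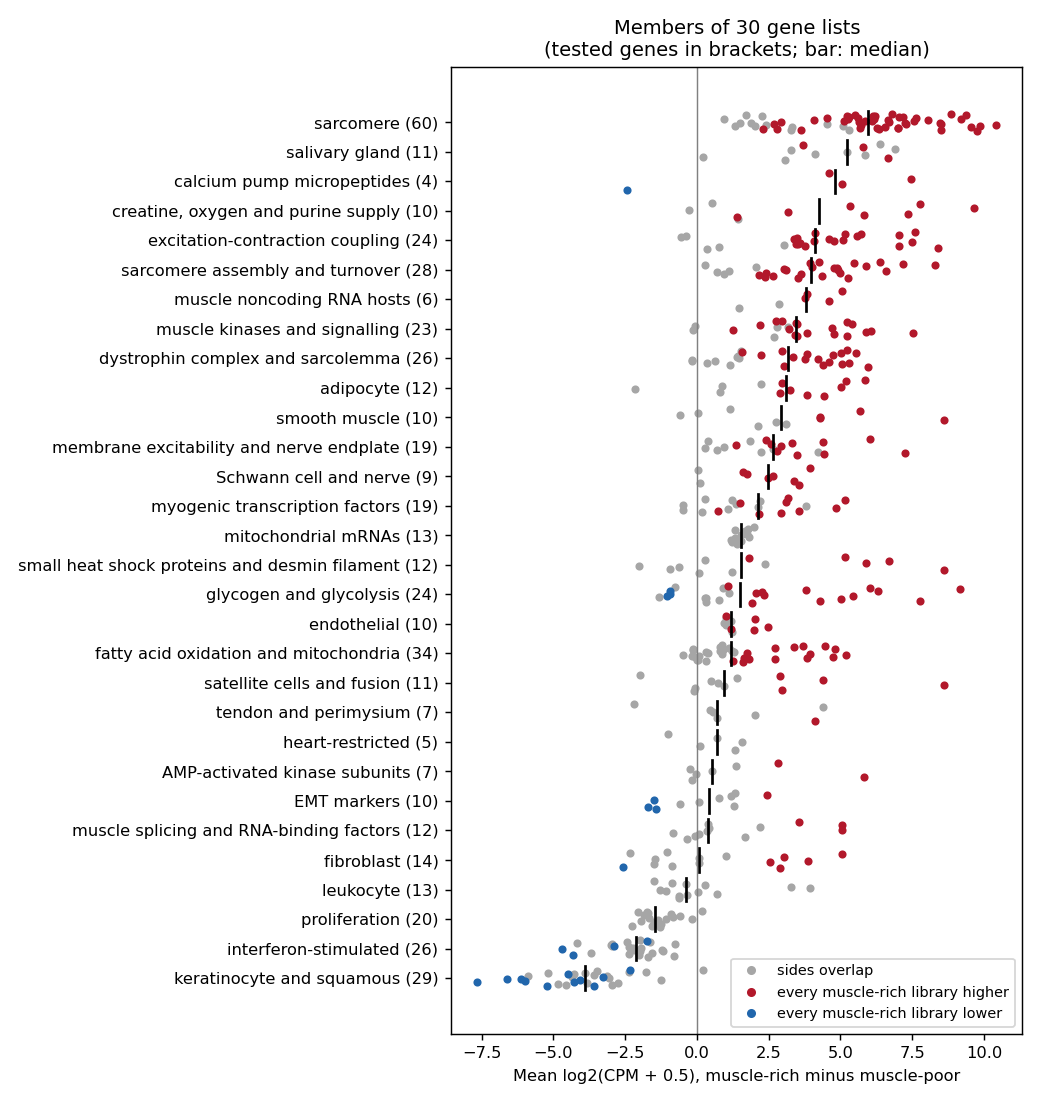
Log2 difference (muscle-rich minus muscle-poor) of every tested member of each gene list, 1 point per gene, with the median of each list as a bar. The sarcomere list has a median of 5.97, the keratinocyte list one of -3.89. Red and blue points are genes higher or lower in every muscle-rich library, without a minimum fold, and grey points overlap.

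Factors that build and turn over sarcomeres moved with the filaments. Of 28 tested genes 23 were higher in every muscle-rich library and none lower, with a median difference of 3.98. KLHL41 stabilises nebulin, and its level was 203, 198, 1090 and 1079 CPM against 0.0393, 0.0733, 25.4 and 0.107 CPM. SMYD1, a methyltransferase of myofibril assembly, stood at 36.7, 77.3, 376 and 282 CPM, and between 0 and 4.36 CPM on the muscle-poor side. UNC45B, the chaperone that folds myosin, differed by 6.38 (SD 1.38 and 2.47). FBXO40, a ubiquitin ligase adaptor of muscle, differed by 6.59 (SD 1.89 and 0.84).

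The machinery of excitation-contraction coupling was displaced as far. Of 24 tested genes 19 were higher in every muscle-rich library, with a median of 4.10. ATP2A1, the fast-fibre calcium pump SERCA1, stood at 574, 824, 3737 and 1139 CPM against 2.38, 2.13, 14.3 and 0.894 CPM, a difference of 8.40 (SD 1.17 and 1.46). CACNA1S, the voltage sensor of the T-tubule, stood at 52.3, 93.7, 475 and 199.5 CPM and between 0 and 10.6 CPM on the other side. Calcium storage in the reticulum was represented by CASQ1, calsequestrin, with a difference of 7.49 (SD 1.54 and 0.85), and TRDN, triadin, with one of 7.59 (SD 1.05 and 2.27).

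The micropeptides that tune the calcium pump did not all go the same way. SLN, sarcolipin, an inhibitor of the pump, stood at 89.4, 194, 1372 and 312 CPM against 0.0393, 0.147, 36.3 and 0.107 CPM. PLN, phospholamban, also an inhibitor, stood at 16.1, 14.0, 61.4 and 55.5 CPM against 0 to 1.55 CPM. STRIT1 encodes DWORF, which counteracts these inhibitors, and stood at 3.65, 4.83, 29.5 and 34.6 CPM against 0, 0, 0.0589 and 0 CPM. These 3 genes were high where the filaments were high. MRLN, the gene of myoregulin, was the exception at 0.992, 1.21, 3.53 and 2.61 CPM on the muscle-rich side and 24.2, 19.5, 8.53 and 5.84 CPM on the muscle-poor side, a difference of -2.45 (SD 0.69 and 0.93). Within the muscle-rich side MRLN was still highest in the controls, as the filament genes were. Which transcripts the MRLN counts come from was not tested.

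Genes of membrane excitability and the endplate were higher in 11 of 19 cases without overlap, 10 of them by 4-fold, with a median of 2.64. SCN4A, the sodium channel that carries the muscle action potential, stood at 39.9, 35.7, 183 and 70.9 CPM against 0.0393, 0, 4.98 and 0.197 CPM. ACHE, acetylcholinesterase, differed by 4.41 (SD 0.92 and 1.19) and KCNJ11, the pore of the ATP-sensitive potassium channel, by 4.40 (SD 1.21 and 1.02).

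Of 26 genes of the dystrophin complex and the sarcolemma, 17 did not overlap and 16 of those passed 4-fold, with a median of 3.18. DMD, dystrophin, stood at 237, 159, 642 and 500.4 CPM against 8.43, 8.87, 52.3 and 0.715 CPM, a difference of 5.28 (SD 0.93 and 2.22). Membrane repair genes were in the same range, with TRIM72, which marks membrane injuries for repair, at 5.22 (SD 0.91 and 1.78) and ANO5 at 5.94 (SD 0.92 and 1.08). SMPX, a small muscle protein encoded on the X chromosome, stood at 19.4, 23.5, 79.1 and 116 CPM, and at 0, 0, 6.20 and 0.0357 CPM on the other side. DAG1, dystroglycan, which many tissues make, overlapped between the sides with a difference of 0.36, and was picked out after its values were seen.

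Fuel genes showed a contrast between muscle isoforms and general ones. Myoglobin, MB, stood at 300.3, 1238, 3781 and 2542 CPM against 1.67, 6.23, 49.6 and 1.72 CPM, a difference of 7.76 (SD 1.61 and 2.13). Carbonic anhydrase 3, CA3, differed by 7.35 (SD 2.02 and 0.60), and AMPD1, the muscle AMP deaminase, by 5.82 (SD 1.37 and 1.05). In the whole list of creatine, oxygen and purine genes, 7 of 10 did not overlap and 6 passed 4-fold. For glycogen and glycolysis, 13 of 24 were higher without overlap, 11 of them by 4-fold, and 3 were lower. PYGM, the muscle glycogen phosphorylase, stood at 157, 527, 1762 and 1252 CPM against 0.589, 0, 4.17 and 0.179 CPM, a difference of 9.16 (SD 1.55 and 1.43). ENO3, the muscle enolase, differed by 7.78 (SD 1.50 and 1.88), PPP1R3A, which targets a phosphatase to glycogen, by 6.32 (SD 1.45 and 0.87), and SLC2A4, the insulin-responsive glucose transporter GLUT4, by 6.02 (SD 1.11 and 0.54). The 3 lower genes were PKM, LDHA and PGK1, general glycolytic enzymes. None of them was lower by 4-fold, and 10.3% of all tested genes were lower without overlap. LDHA stood at 238, 419, 383 and 587 CPM against 999.8, 802, 689 and 772 CPM, a difference of -1.06 (SD 0.54 and 0.22), and PKM and PGK1 each differed by -0.95. None of the 3 stayed free of overlap when library totals replaced TMM.

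Nuclear genes of fat oxidation and mitochondria were less displaced, with 15 of 34 free of overlap, 10 of those past 4-fold, and a median of 1.17. COX7A1, the muscle and heart form of a cytochrome oxidase subunit, stood at 15.7, 63.7, 135 and 64.5 CPM against 1.93, 0.879, 4.61 and 0.590 CPM. SLC25A4, the muscle ADP/ATP carrier, differed by 4.47 (SD 1.26 and 1.23), ESRRG, an orphan nuclear receptor of oxidative metabolism, by 5.20 (SD 1.36 and 0.49) and PERM1, a regulator of muscle oxidative genes, by 4.81 (SD 1.54 and 0.60). The 13 messages encoded in the mitochondrial genome overlapped in every case, with a median of 1.54. MT-CO1, a catalytic subunit of cytochrome oxidase, stood at 22428, 20912, 16373 and 25072 CPM on the muscle-rich side and at 5074, 28553, 2929 and 6340 CPM on the muscle-poor side. Knockdown 3 thus had the highest value of all 8 although its TTN was among the lowest.

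Subunits of the AMP-activated kinase, the energy sensor of the cell, separated by isoform. PRKAA2, the catalytic subunit that prevails in muscle, stood at 68.9, 38.3, 126 and 159 CPM against 0.314, 0.220, 7.77 and 0.572 CPM, a difference of 5.83 (SD 0.92 and 1.65). PRKAG3, a regulatory subunit of fast fibres, stood at 9.97, 3.36, 14.2 and 9.34 CPM against 0.471, 1.10, 2.46 and 0.0179 CPM. PRKAA1, the widely made catalytic subunit, ran from 41.2 to 85.0 CPM and from 46.9 to 90.0 CPM on the 2 sides, a difference of -0.17 (SD 0.48 and 0.40). The remaining PRKAB1, PRKAB2, PRKAG1 and PRKAG2 overlapped too. So 2 of 7 subunits were higher in every muscle-rich library, against 4.52% of all tested genes.

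Among 19 tested muscle transcription factors 9 were free of overlap, 7 of them by 4-fold, with a median of 2.11. MYF6, the myogenic factor of mature fibres, stood at 9.57, 12.3, 64.8 and 56.4 CPM against 0, 0, 5.10 and 0 CPM. MYOG, which drives differentiation, overlapped only through control 2, with 7.44, 7.93, 33.8 and 20.0 CPM against 0, 0, 9.15 and 0 CPM. MYOD1 stood at 0.817, 1.63, 5.99 and 2.88 CPM against 0, 0, 0.914 and 0 CPM, and MYF5 stayed at or under 1.46 CPM in all 8 libraries. Of the MEF2 family, MEF2C differed by 3.55 (SD 0.72 and 1.39), MEF2D by 0.72 (SD 0.43 and 0.22), and MEF2A overlapped with a difference of 0.17. TBX15, a T-box factor known from fast fibres, differed by 5.15 (SD 1.17 and 1.69) and VGLL2, a cofactor of TEAD factors, by 3.19 (SD 1.67 and 0.31).

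Of the satellite cell markers, PAX7 was scarce but higher in every muscle-rich library, and MYF5, given above, was low in every library. PAX7, which marks these stem cells, stood at 1.92, 4.10, 6.02 and 7.48 CPM against 0, 0, 1.06 and 0 CPM. The list of PAX7 had a median difference of 0.94, with 4 of 11 tested members higher in every muscle-rich library, against 4.52% of all tested genes. These were PAX7, NCAM1, CDH15 and the intermediate filament gene DES, which mature fibres make as well. MYMK and MYMX, the fusion genes, did not pass the filter on low counts. DES itself stood at 864, 865, 4444 and 2296 CPM against 0.275, 0.843, 346 and 0.447 CPM, a difference of 8.59 (SD 1.16 and 4.24).

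Of 12 splicing and RNA-binding genes 3 were higher in every muscle-rich library, against 4.52% of all tested genes. RBFOX1, a splicing factor of muscle and neurons, stood at 11.8, 10.9, 45.0 and 41.7 CPM against 0, 0, 1.21 and 0 CPM. RBM24 differed by 5.04 (SD 0.94 and 1.35) and SRPK3, a kinase of splicing factors, by 3.57 (SD 1.01 and 0.98). Muscle kinases and signalling genes were more uniform, with 18 of 23 free of overlap, 17 of those by 4-fold, and a median of 3.43. CMYA5, a large protein near the Z-disc, stood at 723, 795, 3626 and 2518 CPM against 1.73, 3.15, 101 and 4.97 CPM. HJV, hemojuvelin of iron control, differed by 6.05 (SD 1.49 and 1.40), FNDC5, the precursor of irisin, by 5.88 (SD 1.54 and 0.88), and SMTNL2 by 5.39 (SD 1.14 and 1.20). Among small heat shock and desmin-linked genes 5 of 12 did not overlap, 4 of those by 4-fold, led by HSPB7 with 6.70 (SD 1.27 and 2.74) and HSPB6 with 5.88 (SD 1.19 and 0.98).

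The host transcripts of the microRNAs printed above separated the sides as well. MIR1-1HG stood at 3.70, 3.78, 23.5 and 6.56 CPM against 0, 0, 0.103 and 0 CPM. MIR133A1HG stood at 21.8, 25.1, 48.9 and 86.7 CPM against 0.491, 1.06, 0.413 and 0.947 CPM, a difference of 5.05 (SD 0.91 and 0.39). MIR133A1HG overlaps MIB1, and whether the counting used strand is not given in the sources used here, so reads of the pair cannot be told apart. MEG3 and MEG8, imprinted long RNAs, differed by 4.59 (SD 0.81 and 1.35) and 3.77 (SD 0.41 and 0.94).

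Markers restricted to heart did not follow the split. Of 10 genes 5 passed the filter on low counts and none was free of overlap. RYR2, the cardiac ryanodine receptor, was the most uneven, at 107, 3.31, 22.4 and 4.42 CPM against 2.34 to 51.1 CPM. It was highest in knockdown 2, and control 4 was the highest library of the muscle-poor side. GJA5, an atrial connexin, reached 11.5 CPM in control 1 and 6.40 CPM in control 2. Other defining markers were at or near 0 in all 8 libraries: MYBPC3, cardiac myosin-binding protein C, did not exceed 0.757 CPM in any library, NPPA, atrial natriuretic peptide, 0.586 CPM, MYL7, atrial myosin light chain, 0.679 CPM, and TNNI3, cardiac troponin I, 0.441 CPM. TNNT2, cardiac troponin T, was listed at 0 in knockdown 2 and control 1 and reached 7.37 CPM in knockdown 3.

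Genes of other tissues moved with the split, and their part in the differences above was not tested. The smooth muscle list took 0.359%, 0.133%, 0.651% and 0.403% of counts on the muscle-rich side and 0.0099% to 0.0802% on the other. In it 4 of 10 genes were higher in every muscle-rich library, among them DES, which striated fibres make as well. These shares include the counts of DES, whose levels are given above, so they are not a measure of smooth muscle alone. MYH11, smooth muscle myosin, stood at 708, 51.2, 852 and 20.3 CPM against 8.29, 5.86, 18.1 and 3.75 CPM, and so was high in the same pair of libraries as the salivary gland genes. Of 12 adipocyte genes 8 were higher in every muscle-rich library, with a median of 3.09. ADIPOQ, the adipokine adiponectin, stood at 18.6, 3.62, 5.01 and 30.6 CPM and had a count of 0 in all 4 muscle-poor libraries, which allows at most 0.110 CPM in any of them. PLIN1, which coats fat droplets, stood at 18.6, 10.7, 17.1 and 87.6 CPM, and at most at 0.295 CPM on the other side.

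Schwann cell and nerve genes were free of overlap in 7 of 9 cases, 5 of them by 4-fold. SOX10, a neural crest factor, stood at 61.6, 2.18, 100.3 and 2.88 CPM against 0.286 to 0.953 CPM. It was thus highest in knockdown 2 and control 1, the pair with salivary gland transcripts. Of the 9 genes 5 had control 1 and knockdown 2 above control 3 and knockdown 4, against 21.7% of all tested genes. Endothelial genes were free of overlap in 5 of 10 cases, 2 of them by 4-fold, with EMCN, endomucin, at 8.26 to 12.1 CPM against 0.429 to 3.14 CPM. Fibroblast genes were mixed. Of 14 members 8 had a positive difference, 5 were higher in every muscle-rich library and 1, COL1A1, lower, with a median of 0.06 that turned sign with single libraries left out (-0.52 without knockdown 3, 0.73 without control 2). Their share was highest in control 2 of the muscle-poor side, at 2.12%, against 0.108% to 0.444% on the muscle-rich side. COL3A1, a fibrillar collagen chain chosen after its values were seen, stood at 149.6, 224, 122 and 401 CPM against 247, 195, 4659 and 466 CPM. PI16, a gene of adventitial fibroblasts, stood at 6.79, 11.6, 33.5 and 72.0 CPM against 0 to 0.413 CPM, and PDGFRA, a receptor of mesenchymal cells, at 26.6, 45.7, 61.8 and 117 CPM against 2.22 to 16.6 CPM. Near the share of 12.7% over all tested genes, tendon genes had 1 member of 7, CILP, free of overlap. Of 13 leukocyte genes none was, and their share of 1.45% and 0.944% in knockdown 2 and control 1, against at most 0.0608% elsewhere, includes LYZ, lysozyme, which is in the salivary list too. PTPRC (CD45) stood at 11.3 to 27.2 CPM and 23.3 to 69.1 CPM on the 2 sides.

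Salivary gland genes split the muscle-rich side itself. Of the 24 listed genes 13 did not pass the filter on low counts, and the 11 tested members were higher in control 1 and knockdown 2 than in control 3 and knockdown 4. MUC5B, a gel-forming mucin, stood at 53910 CPM in knockdown 2 and 4578 CPM in control 1, and at 3.28 and 1.60 CPM in knockdown 4 and control 3. The pair was not alike, since LCN1, tear lipocalin, stood at 76564 CPM in control 1 and at 0.350 CPM in knockdown 2, against 0.210 and 0.157 CPM in knockdown 4 and control 3. BPIFB1, a secreted airway and gland protein, stood at 481, 0.683, 50365 and 0.288 CPM against 0.143 to 0.236 CPM, so 2 of its 4 muscle-rich values lay near the muscle-poor ones although the sides did not overlap. STATH, statherin, stood at 6664, 1.42, 45.8 and 0.575 CPM against 0 to 0.0393 CPM.

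**Figure D3:**
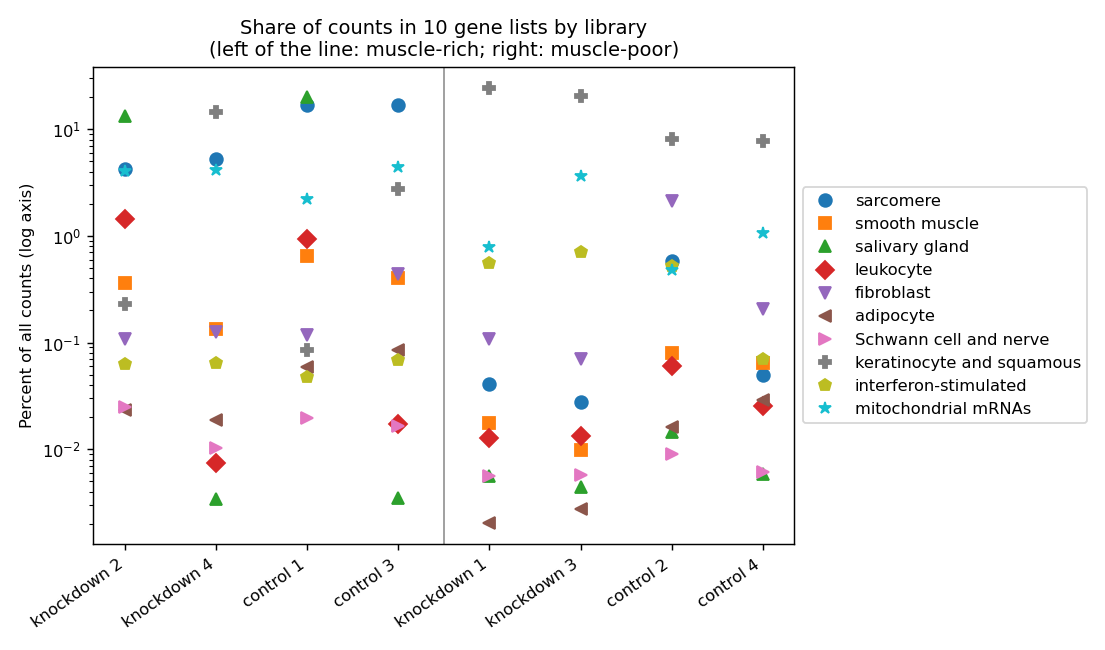
Share of all counts (percent, log axis) taken by selected gene lists in each of the 8 libraries. The salivary gland list reaches 13.4% and 20.1% in knockdown 2 and control 1 and stays at or under 0.0146% in the other 6, while the keratinocyte list runs from 7.76% to 24.2% on the muscle-poor side and is 0.0849% in control 1.

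Of the 30 lists, the keratinocyte list had the lowest median difference, -3.89, and 11 of its 29 genes were lower in every muscle-rich library by at least 4-fold. Most of the 346 lower genes, 330, stood in none of the lists. The summed share of the keratinocyte list was 0.232%, 14.4%, 0.0849% and 2.77% on the muscle-rich side. On the muscle-poor side it was 24.2%, 20.4%, 8.17% and 7.76%. Knockdown 4 thus combined a sarcomere share of 5.28% with a keratinocyte share inside the muscle-poor range. KRT16, a keratin of activated epithelium, stood at 32.1, 2580, 4.19 and 67.0 CPM against 29532, 31553, 6927 and 6960 CPM, a difference of -7.66 (SD 3.81 and 1.23). KRT6A stood at 60.5, 8836, 12.0 and 583 CPM against 50230, 50177, 14898 and 9534 CPM, and its difference was -6.61 (SD 4.11 and 1.23). KRT17 was low in all 4 muscle-rich libraries, knockdown 4 included, at 167, 306, 65.6 and 20.0 CPM against 10401, 11691, 1044 and 9387 CPM. KRT13, a keratin of the mucosal lining, overlapped, with 15.8, 27563, 16.9 and 4428 CPM against 772 to 15147 CPM. TP63, the master factor of squamous cells, stood at 31.1, 270.2, 26.1 and 273 CPM against 697, 306, 305 and 599 CPM. On the muscle-rich side, 26 of 29 keratinocyte genes were higher in control 3 and knockdown 4 than in control 1 and knockdown 2, an order that 21.6% of all tested genes had.

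Interferon-stimulated genes were lower without overlap in 4 of 26 cases, 3 of them by 4-fold, with a median of -2.11 (-3.29 without control 4). Of all tested genes 10.3% were lower without overlap, and 1.63% were so by at least 4-fold. ISG15, a ubiquitin-like antiviral protein, stood at 7.20, 2.91, 5.39 and 2.14 CPM against 314, 621, 91.9 and 9.56 CPM. IFI27 differed by -4.32 (SD 0.81 and 1.27) and OAS3, a sensor of double-stranded RNA, by -2.88 (SD 0.29 and 1.48). STAT2, the transducer of type I interferon, was even across the muscle-rich side at 77.7, 81.9, 84.2 and 78.2 CPM, against 291, 359.7, 439.8 and 111 CPM. The summed list was lowest of the muscle-poor side in control 4, at 0.0707% against 0.527% to 0.702%. No proliferation gene of 20 was free of overlap, with a median of -1.45 (-0.90 without control 1), and all 20 were higher in control 3 and knockdown 4 than in control 1 and knockdown 2. Among 10 genes of epithelial and mesenchymal state, ZEB1, a repressor of epithelial genes, differed by 2.43 (SD 0.67 and 1.06), and CDH1, E-cadherin, by -1.69 (SD 0.70 and 0.19). CD44, a hyaluronan receptor, differed by -1.41, and SNAI2, a repressor of E-cadherin, by -1.50, the last of them with overlap under library totals. None of the 3 reached 4-fold.

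**Figure D4:**
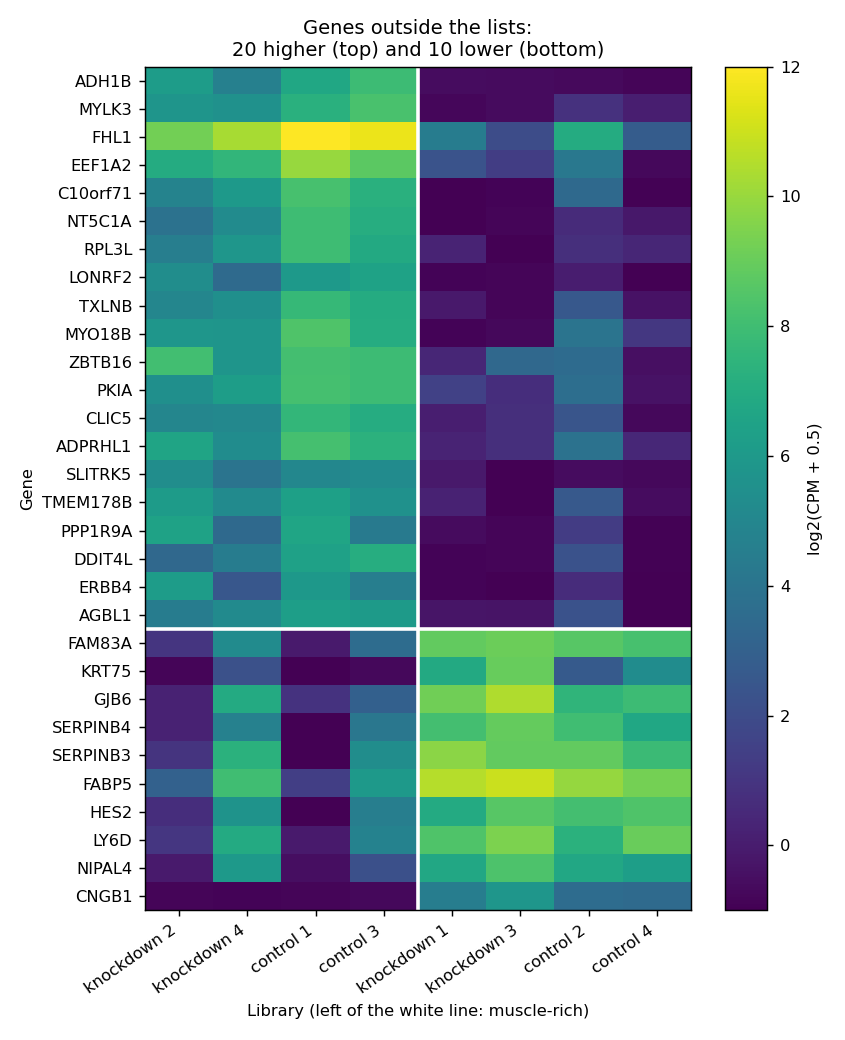
Log2(CPM + 0.5) as colour in each of the 8 libraries (columns) for the 20 genes most above and the 10 genes most below, among genes in none of the lists whose sides do not overlap. ADH1B leads the higher genes with a difference of 7.04 and FAM83A the lower ones with -6.24.

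Most of the separating genes stood in none of the lists, 747 on the higher and 330 on the lower side. ADH1B, an alcohol dehydrogenase, led the higher ones with 72.5, 24.7, 105 and 239 CPM against 0.177, 0.147, 0.118 and 0.0715 CPM, a difference of 7.04 (SD 1.35 and 0.10). MYLK3, a myosin light chain kinase best known from heart, stood at 53.6, 47.6, 152 and 311 CPM against 0.0786 to 1.33 CPM, a difference of 6.84 (SD 1.28 and 0.76). FHL1, a LIM protein of muscle, differed by 6.72 (SD 1.26 and 2.21) and EEF1A2, the elongation factor isoform of muscle and neurons, by 6.55 (SD 1.33 and 2.05). RPL3L is the muscle form of a ribosomal protein, and it stood at 22.8, 55.7, 252 and 119 CPM against 0.746, 0, 1.18 and 0.822 CPM. NT5C1A, a cytosolic nucleotidase, differed by 6.40 (SD 1.82 and 0.73), MYO18B, an unconventional myosin of muscle, by 5.90 (SD 1.26 and 2.26), and PKIA, an inhibitor of protein kinase A, by 5.56 (SD 1.31 and 1.72). C10orf71, LONRF2, TXLNB, ZBTB16, CLIC5, ADPRHL1, SLITRK5, TMEM178B, PPP1R9A, DDIT4L, ERBB4 and AGBL1 complete the 20, with differences from 5.35 to 6.42. ERBB4, a neuregulin receptor, departed from the filament order, with 73.3, 5.28, 59.9 and 23.2 CPM against 0 to 1.05 CPM.

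On the lower side, FAM83A stood at 1.52, 37.9, 0.473 and 11.5 CPM against 464, 541, 395 and 301 CPM, a difference of -6.24 (SD 2.41 and 0.36). SERPINB3 and SERPINB4, the squamous cell carcinoma antigens, differed by -5.67 (SD 3.85 and 0.78) and -5.92 (SD 2.83 and 0.91). They are near-identical neighbours whose reads may be split between them. GJB6, a connexin of epidermis, FABP5, the epidermal fatty acid-binding protein, LY6D, NIPAL4 and HES2 differed by -5.18 to -6.00 and were highest of the muscle-rich side in knockdown 4. KRT75 differed by -6.06 (SD 1.55 and 2.67). CNGB1, a channel subunit known from rod photoreceptors, was the exception in the evenness of its low side, at 0.0583, 0.0525, 0.0630 and 0.105 CPM against 22.6, 56.4, 11.6 and 10.7 CPM. Those low values lie near the 0.0784 to 0.0946 CPM that a count of 0 allows there, so the evenness rests on few reads.

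The 4 muscle-rich libraries were not alike. For 497 of the 957 higher genes (51.9%) both controls lay above both knockdowns, as they did for 15.2% of all tested genes. In 237 (24.8%) control 1 and knockdown 2 lay above control 3 and knockdown 4, against 21.7% of all tested genes. In 28 genes (2.93%) both knockdowns lay above both controls, against 14.3% of all tested genes. Sarcomere genes had the control order in 47 of 60 cases, excitation-contraction genes in 19 of 24, and kinases and signalling genes in 20 of 23. Messages of the mitochondrial genome had the opposite order, with both knockdowns above both controls in 11 of 13. On the muscle-poor side control 2 was the highest library for 622 of the 957 genes (65.0%), against 26.8% of all tested genes, and for 54 of 60 sarcomere genes. Of the 346 lower genes, 167 (48.3%) were higher in control 3 and knockdown 4 than in control 1 and knockdown 2, against 21.6% of all tested genes.

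**Figure D5:**
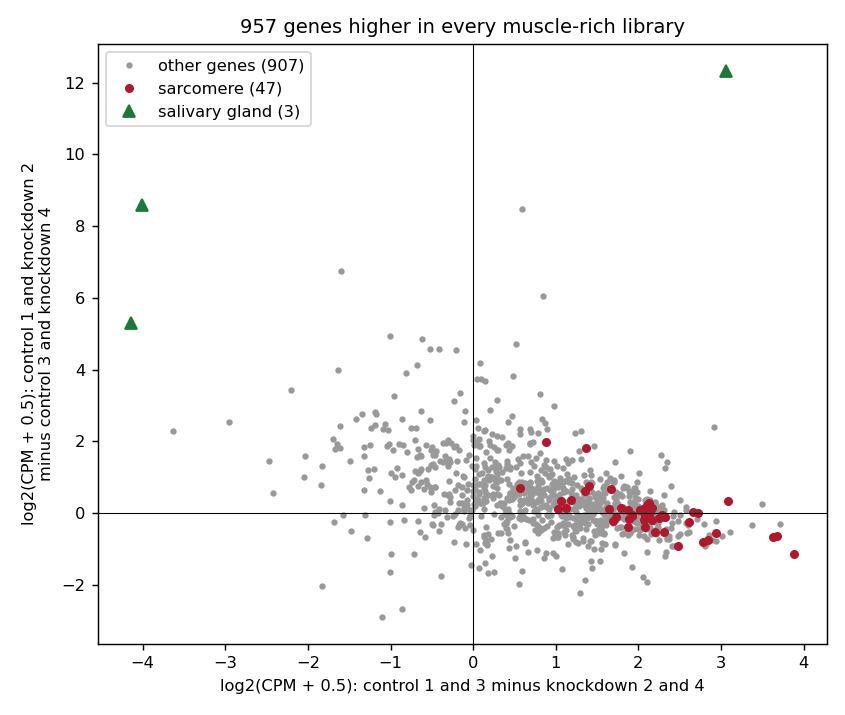
For the 957 genes higher in every muscle-rich library, the log2 difference of control 1 and control 3 minus knockdown 2 and knockdown 4 (x axis) against that of control 1 and knockdown 2 minus control 3 and knockdown 4 (y axis), 1 point per gene. Sarcomere genes lie at medians of 2.08 and -0.05, all 957 genes at 0.94 and 0.29.

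How tightly a gene kept a fixed ratio to TTN was described by the SD of log2(gene/TTN) over the 4 muscle-rich libraries. Outside the sarcomere list 94 genes were at least 16-fold higher without overlap and had a mean log2 CPM of at least 3, and their SD had a median of 0.57 and ran from 0.06 to 2.90. For 37 sarcomere genes other than TTN the median was 0.61, from 0.15 to 1.56. The 10 tightest genes were MAPT (0.06), CASQ2 (0.10), ANK2 (0.11), TRDN (0.11), CMYA5 (0.12), STAC3 (0.14), PDE4DIP (0.18), GPD1 (0.19), TMEM38A (0.20) and CAND2 (0.21). CASQ2, TRDN, STAC3 and TMEM38A act at or in the sarcoplasmic reticulum and its junction with the T-tubule. How frequent such genes are among all 94 was not tested, so no theme can be read from the 10. TTN was also the gene sorted on, and the 94 were kept for being high on the muscle-rich side. MAPT, the microtubule protein tau, stood at 36.2, 41.6, 144 and 112 CPM against 0.805, 0.513, 6.23 and 29.3 CPM, so control 4 rather than control 2 was its highest muscle-poor library. The 10 loosest were MYH11 (2.90), ALDH1A1 (2.39), TF (2.29), CGNL1 (2.23), APOD (1.77), ALDH1L1 (1.75), SORBS2 (1.61), GFRA1 (1.53), LIFR (1.48) and SFRP1 (1.37). TF, transferrin, stood at 252, 12.6, 257 and 24.7 CPM, high in the pair with salivary gland transcripts, and APOD, apolipoprotein D, at 314, 42.2, 83.5 and 374 CPM.

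COL1A1, the gene the siRNA was directed against, was lower in every muscle-rich library, by a narrow gap. It stood at 109.8, 148, 103 and 401 CPM on the muscle-rich side and at 435, 402, 7452 and 641 CPM on the muscle-poor side, a difference of -2.56 (SD 0.90 and 2.00). The gap between control 3 and knockdown 3 was thus under 1 CPM, and the sides overlapped under library totals. Control 2 alone lay far above the rest. Knockdown minus control, with the split as a term, gave a log2 difference of -2.12 (SE 0.94, adjusted p = 0.551, edgeR quasi-likelihood test with Benjamini-Hochberg adjustment over all tested genes). In the model with the interaction the difference was -0.97 on the muscle-rich side and -3.27 on the muscle-poor side, and these differed from each other by 2.31 (SE 1.62, adjusted p = 0.974, edgeR).

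The label was not part of the sorting rule, so knockdown and control could be tested with the split as a term. No gene of 21192 passed an adjusted p of 0.05 in edgeR (0%), the smallest adjusted p being 0.317. At an unadjusted p under 0.05 there were 1947 genes (9.19%), 985 higher (4.65%) and 962 lower (4.54%) in the knockdown libraries. DESeq2 called 563 of 25500 genes (2.21%). Of the sarcomere list, 35 of 60 had an unadjusted p under 0.05, all lower in the knockdown libraries, and of the keratinocyte list 10 of 29, all higher. DESeq2 called 25 and 9 of these lists in the same directions.

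The smallest p-values on the lower side belonged to FNDC5, with a log2 difference of -2.83 (SE 0.32, adjusted p = 0.317, edgeR), FABP3, the muscle fatty acid-binding protein, with -2.55 (SE 0.34), ANK2, ankyrin-B, with -2.40 (SE 0.36), LRRC39, a protein of the M-band, with -2.51 (SE 0.39), and CPED1 with -1.81 (SE 0.28). When the log2 sarcomere share of each library replaced the split as the term, these differences were -1.30, -1.41, -1.23, -1.21 and -1.18, with edgeR adjusted p of at least 0.609. The smallest on the higher side were S100A7A with 10.18 (SE 1.37), KLK6 with 4.35 (SE 0.62), KLK14 with 5.13 (SE 0.75), S100P with 4.65 (SE 0.71) and TMEM45B with 3.17 (SE 0.50), each at an edgeR adjusted p of 0.357, as were the 4 after FNDC5. With the sarcomere share as the term, these higher-side differences became smaller too, at 6.13, 3.04, 4.06, 3.46 and 2.44. Each then had an edgeR adjusted p of 0.609. S100A7A, of the psoriasin family, stood at 2.16, 0.263, 0 and 0 CPM on the muscle-rich side and at 177, 1848, 0.531 and 1.14 CPM on the muscle-poor side. KLK6, an epidermal kallikrein, stood at 4.55, 6.41, 0.473 and 0.0784 CPM and at 187, 53.2, 4.10 and 7.56 CPM. For both genes the knockdown libraries lay above the controls on each side of the split. DESeq2 called all 10 of these genes, edgeR none.

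The difference between the label effects on the 2 sides was tested as an interaction. No gene was called by edgeR (0%), with a smallest adjusted p of 0.850, and 837 genes (3.95%) had an unadjusted p under 0.05. DESeq2 called 52 of 21039 genes (0.247%). SCNN1D, a subunit of epithelial sodium channels, had the smallest p, with 1.25, 1.08, 2.21 and 2.09 CPM on the muscle-rich side and 42.9, 48.2, 0.545 and 1.22 CPM on the muscle-poor side, an interaction of -6.57 (edgeR adjusted p = 0.850). Next on that side were GDPD2 with -5.55, MLIP, a lamin-interacting protein of muscle, with -4.25, USP2 with -3.52 and SETBP1 with -2.66. In the other direction were ANKRD18A with 6.72, RIMS2 with 5.79, MMP11, a stromal metalloproteinase, with 4.84, FZD3, a Wnt receptor, with 4.65 and SOCS2, a feedback inhibitor of cytokine signalling, with 3.90. All 9 had an edgeR adjusted p of 0.974. DESeq2 called SCNN1D and all of the 9 except SETBP1 (DESeq2 adjusted p = 0.0979). MLIP stood at 18.1, 36.6, 58.2 and 58.5 CPM against 40.5, 44.9, 4.26 and 5.29 CPM, so its knockdown libraries lay below the controls on the muscle-rich side and above them on the other.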

How the data were processed

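RNA of 8 libraries was sequenced, and the authors deposited 1 table of raw read counts covering 63241 genes. Per the submitters' processing notes, the tools were STAR, featureCounts and Subread and the genome build was hg38. For their versions and the strand setting, nothing was given in those notes or in the labels. Symbols were matched for 62666 gene IDs, leaving 575 without one. From the counts, edgeR 4.0.16 (R 4.3.3) filtered genes with filterByExpr by label, which kept 21192 genes with no less than 94.4% of the counts in any library, and scaled the libraries by TMM. Levels are CPM on that scale, with a pseudocount of 0.5 on the log2 scale. TTN for the sorting rule was taken as CPM of all counts. Label tests were two-sided edgeR quasi-likelihood tests over all 8 libraries with Benjamini-Hochberg adjustment, with 5 residual degrees of freedom with the split as a term and 4 with the interaction. DESeq2 1.42.0, other scalings and filters, a threshold of 1000 CPM and leaving out each library were the alternatives.

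The genes named were TTN, NEB, CKM and COL1A1. From each list, they were up to 4 genes without overlap and with the largest difference, or 2 of the highest mean where none was free of overlap, and any member of lists of isoforms. Outside the lists they were the 20 most above and the 10 most below, with a mean log2 CPM of at least 1. For the label tests they were the 5 smallest p-values in each direction, and for the ratio to TTN the 10 tightest and 10 loosest genes. Markers of cell types were named besides. Some genes that this rule names are not reported here. Other members named were chosen after their values were seen. The libraries, lists and tests were chosen with earlier results of these data known, and the 30 lists hold 540 distinct genes.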

Additional observations from a re-analysis of the deposited data

Results flagged for a closer look

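In groups of 4 libraries, a library was singled out when its gap to the nearest other exceeded Dixon's 95% critical value for the group's range. Of 68 groups of 4 checked, 11 met this. The groups reuse the same 8 libraries and TTN was the value sorted on. The 1 in 20 that holds for independent values is therefore no reference, and the count is a description. On the muscle-poor side control 2 was the high library for TTN (2354 CPM, the others 19.7 to 32.3), CKM (37.2 CPM, the others 0.366 to 0.707), COL1A1 (7452 CPM, the others 402 to 641) and the summed Schwann cell and nerve list (0.00897% of counts, the others 0.00563% to 0.00606%). Knockdown 3 was low there for the proliferation list, at 0.0175% against 0.0779% to 0.0870%, and for the splicing and RNA-binding list, at 0.0536% against 0.0880% to 0.0944%. Control 4 was low for the interferon-stimulated list, at 0.0707% against 0.527% to 0.702%.

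On the muscle-rich side control 3 was high for the fibroblast list, at 0.444% against 0.108% to 0.125%, and for the splicing and RNA-binding list, at 0.140% against 0.0834% to 0.0879%. It was low for the endothelial list, at 0.0439% against 0.0560% to 0.0589%. Control 1 was low for the messages of the mitochondrial genome, at 2.22% against 4.10% to 4.45%.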

How the results depend on the processing

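The 957 higher genes stayed within 1.5 times under other scalings, no filter on low counts, a TTN threshold of 1000 CPM (745, of which 578 shared) and leaving out each library (914 to 1162), and were 2691 with no minimum fold. The 346 lower genes were 230 with totals that leave out the sarcomere and salivary gland lists, 2181 with no minimum fold, 188 with a TTN threshold of 1000 CPM (111 shared) and 332 to 709 with each library left out, the highest without knockdown 4. Without both libraries rich in salivary gland transcripts, a choice made after seeing the data, the counts were 952 (788 shared) and 369 (250 shared). The label test called 0 genes under other scalings, without the split term, with the sarcomere share in its place and with a replicate block. It called 1443 with no filter on low counts, 563 with DESeq2 and 0 to 33 with each library left out, the 33 without knockdown 2. The interaction called 534 with no filter, 52 with DESeq2 and 0 with any library left out, and its replicate block could not be fitted. The cause of these shifts was not tested. Same-numbered knockdown and control libraries all lie on opposite sides of the split, so the correlations of their deviations (-0.69 to -0.38) cannot show whether the numbers pair them. All 300 alternative list medians stayed within the spread of the libraries, which is wide. Single libraries moved the salivary gland median from 5.23 to 3.17 (without control 1), that of smooth muscle from 2.92 to 1.75 (without knockdown 2), interferon from -2.11 to -3.29 (without control 4) and proliferation from -1.45 to -0.90 (without control 1), and the mitochondrial messages ran from 1.06 to 2.23 and keratinocyte from -5.13 to -3.12. Medians near 0 moved by as large a ratio, and those of 3 lists turned sign: fibroblast (-0.52 to 0.73), leukocyte (-0.71 to 0.03) and epithelial-mesenchymal (-0.02 to 0.80). With 4 libraries a side and counts near 0 for many muscle genes on the muscle-poor side, low levels there rest on few reads.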
